A study of Mus musculus with 12 samples.

Results

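The cluster of miR-221 and miR-222 comprises the 4 mature miRNAs mmu-mir-221-3p, mmu-mir-221-5p, mmu-mir-222-3p and mmu-mir-222-5p, that is, both arms of the precursors Mir221 and Mir222. They were chosen by name, with earlier results of these data known, and are 4 of the 1978 mature miRNA entries of the count table. Small RNA was sequenced from whole blood and whole colon of 6 male C57BL/6 wild-type mice, 8 weeks old, giving 12 libraries. In each tissue 3 mice had colitis induced with dextran sulfate sodium (DSS, a polymer toxic to the colon epithelium) and 3 time-matched controls drank water without DSS. DSS was given at 1.5% in drinking water for 7 days, and the mice were sacrificed on day 8. The 6 mice had been selected from a larger cohort on their disease activity index, so the groups differ in severity of disease by selection as well as by treatment. Both tissues are mixtures of cells, in which a change in cell numbers and a change in miRNA per cell cannot be told apart.

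The sample labels disagree with the study on the groups. The heatmaps and the principal component plots of the study show DSS treatment for mice 1, 7 and 9 and none for mice 2, 4 and 8, which was the grouping used here. The disease state field of the labels marks mice 1, 2 and 4 as diseased and mice 7, 8 and 9 as healthy, and the results are also given under it below. The source field names for every library the opposite tissue to the library title and the tissue field. The miRNA content sided with the titles. Listed erythroid miRNAs (miR-451a, miR-144 and miR-486a) took 378969 to 423836 CPM (counts scaled to a common library total, here the total count) in the 6 blood libraries and 1545 to 2782 in the 6 colon libraries. Smooth muscle miRNAs (miR-143, miR-145a, miR-133a-3p and miR-1a-3p) took 139.9 to 473.2 in blood and 266471 to 368922 in colon. Total counts were 15060553 to 20106226 per colon library and 21127134 to 32944792 per blood library. The members together made up 0.0615% to 0.143% of the count of a colon library and 0.039% to 0.165% of a blood library.

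miR-221 and miR-222 are transcribed together from the X chromosome. Their 3p arms are the major products and share a seed, the bases that pair with target mRNAs, so that they are predicted to repress many of the same transcripts. Known targets include the cell cycle inhibitor Cdkn1b (p27) and the receptor Kit. The pair is known for promoting proliferation, for limiting the expansion of erythroid progenitors through Kit, and for acting in vascular smooth muscle and endothelium. The 5p arms have other seeds and are the minor products.

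The mature sequences are shown because the seeds decide which members belong together, and are taken from the deposited tables. The seed, bases 2 to 8 from the 5′ end, is in capitals.
mmu-mir-221-3p: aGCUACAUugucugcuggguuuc
mmu-mir-222-3p: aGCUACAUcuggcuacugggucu
mmu-mir-221-5p: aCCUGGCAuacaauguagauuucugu
mmu-mir-222-5p: cUCAGUAGccaguguagaucc
The 3p arms, both 23 nt long, had the same first 8 bases and 11 identical positions when aligned at base 1. The 5p arms, 26 and 21 nt long, matched at only 2 positions in that alignment, and their longest common run was 7 bases. Neither 5p seed occurred in any other entry of the table. One other entry carried the 3p seed, mmu-mir-1928 (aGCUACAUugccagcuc, 17 nt). It was not detected beyond 1 count in the blood library of DSS mouse 1, so reads with this seed came from the members at the depth of these libraries.

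The precursors show where the arms lie and that the reads of one arm cannot come from the other. Both are on the minus strand of chromosome X in GRCm38.p6 (RefSeq), each an exon of its own miRNA gene and outside any other annotated gene. Arms are in capitals, the 5p arm first.
Mir221, chrX:19146294-19146388: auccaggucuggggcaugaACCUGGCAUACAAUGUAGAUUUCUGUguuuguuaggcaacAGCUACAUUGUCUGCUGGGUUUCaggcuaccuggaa
Mir222, chrX:19146893-19146971: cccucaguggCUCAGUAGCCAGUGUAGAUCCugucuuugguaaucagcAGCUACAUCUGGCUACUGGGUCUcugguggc
The precursors are 504 bases apart. The nearest other annotated gene, the processed transcript Gm14636, lies 10010 bp from Mir222 on the same strand. RefSeq gives the other 3 mature sequences as the tables do and has no entry for mmu-mir-222-5p, whose position was found by matching the tables' sequence to the precursor.

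The 3p arms were the abundant members in every library. mmu-mir-222-3p had 6273 to 19052 counts in colon and 7208 to 29215 in blood, and mmu-mir-221-3p had 2705 to 8968 and 1832 to 19750. mmu-mir-222-3p ranked between 65 and 85 among all entries in the colon libraries and between 37 and 46 in the blood libraries. The 5p arms were scarce, with 227 to 543 counts of mmu-mir-221-5p in colon and 71 to 215 in blood. mmu-mir-222-5p had 56 to 129 counts in colon and 106 to 162 in blood. All 4 members passed the filter on low counts in both tissues.

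In the colon, no member was significantly differentially expressed (SDE, here with an adjusted p ≤ 0.05 in edgeR's quasi-likelihood test, after Benjamini and Hochberg, and a fold change above 1.5) between DSS and control mice. Of all 542 miRNAs tested, 55 (10.1%) were SDE, of which 32 (5.90% of those tested) were higher in DSS mice and 23 (4.24%) were lower. Values are CPM scaled with TMM factors of the 6 libraries of the tissue. mmu-mir-221-3p was at 194, 335 and 347 CPM in DSS mice 1, 7 and 9 and at 309, 372 and 420 CPM in control mice 2, 4 and 8. DSS mouse 1 was the lowest and the other DSS mice lay within the control range. Its log2 fold change was -0.33 ± 0.24 (SE, n = 3 per group, adjusted p = 0.380 in edgeR).

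mmu-mir-222-3p was at 449.5, 777.5 and 737 CPM in the colon of DSS mice 1, 7 and 9 and at 676, 798 and 815 CPM in the controls. Again mouse 1 was the lowest, and the groups overlapped. Its log2 fold change was -0.22 ± 0.22 (SE, n = 3 per group, adjusted p = 0.512 in edgeR). Without mouse 1 the log2 fold changes were -0.12 for mmu-mir-221-3p and -0.02 for mmu-mir-222-3p, and without mouse 7 they were -0.44 and -0.36. The values also depended on the scaling, and with total counts alone they were -0.065 for mmu-mir-221-3p and 0.03 for mmu-mir-222-3p. Its level relative to mmu-mir-221-3p was close in all 6 colon libraries, at 1.94 to 2.32 times.

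mmu-mir-221-5p was at 16.3, 16.0 and 21.0 CPM in the colon of DSS mice 1, 7 and 9 and at 27.2, 19.2 and 21.7 CPM in the controls. DSS mice 1 and 7 were below all controls and mouse 9 lay inside the control range. The log2 fold change was -0.35 ± 0.20 (SE, n = 3 per group, adjusted p = 0.263 in edgeR), and -0.23 without mouse 2 and -0.12 with total counts alone. mmu-mir-222-5p was at 4.59, 3.72 and 4.99 CPM in DSS mice and at 3.73, 4.53 and 4.45 CPM in controls, with full overlap. Its log2 fold change of 0.07 ± 0.20 had an adjusted p of 0.820 in edgeR, and it was -0.05 with upper-quartile factors and 0.30 with total counts alone. None of the 4 members was among the 38.6% of miRNAs whose colon groups did not overlap.

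**Figure D1:**
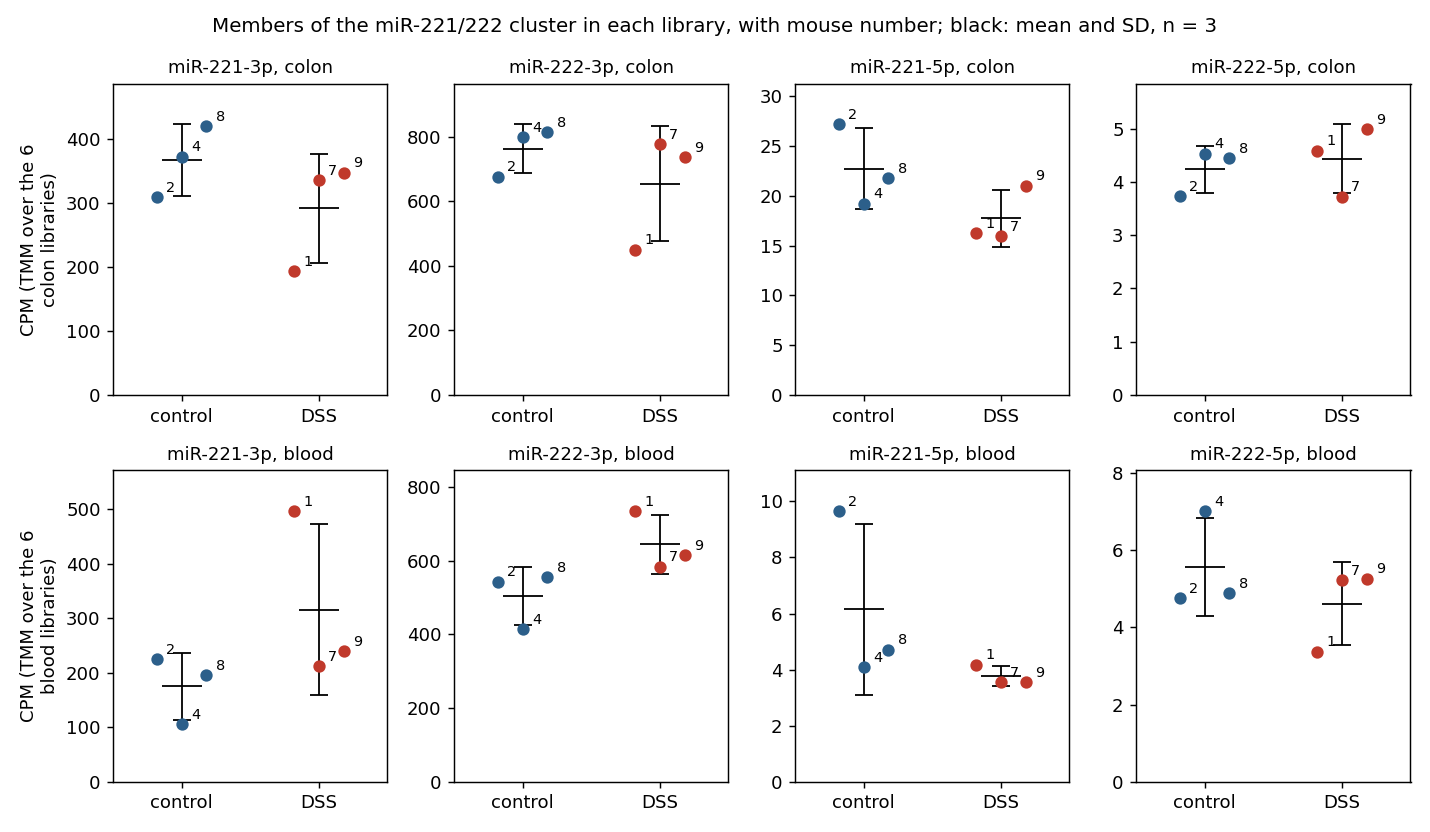
Level of each member (vertical axis, CPM scaled with TMM factors within the tissue, each panel with its own scale from 0) in control and DSS mice, colon above and blood below. Points are libraries labelled with the mouse number, and black lines are the mean and SD of 3 mice. DSS mouse 1 had the lowest 3p levels in colon and the highest in blood.

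In blood, 0 of 484 miRNAs (0%) were SDE in edgeR, 56 had an unadjusted p under 0.05, and DESeq2 called 10, none of them a member. mmu-mir-221-3p was at 497, 212 and 239 CPM in DSS mice 1, 7 and 9 and at 225, 105 and 195 CPM in control mice 2, 4 and 8. DSS mouse 1 stood well above the other 5 mice, mouse 7 lay inside the control range, and mouse 9 was just above it. The log2 fold change was 0.85 ± 0.40 (SE, n = 3 per group, adjusted p = 0.420 in edgeR) and was 0.42 without mouse 1.

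mmu-mir-222-3p was at 735, 584 and 614 CPM in the blood of the DSS mice and at 543, 415 and 556 CPM in the controls. All 3 DSS mice were above all 3 controls, as was the case in either direction for 17.4% of the miRNAs tested in blood. The log2 fold change was 0.35 ± 0.22 (SE, n = 3 per group, adjusted p = 0.568 in edgeR), and it was 0.30 without mouse 1, 0.57 with total counts alone and 0.64 in 1 fit of all 12 libraries.

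For the 5p arms, mmu-mir-221-5p was at 4.18, 3.55 and 3.55 CPM in the blood of DSS mice 1, 7 and 9 and at 9.66, 4.09 and 4.72 CPM in the controls. DSS mice 7 and 9 were below all controls, mouse 1 was between control mice 4 and 8, and control mouse 2 was far above the rest. The log2 fold change was -0.71 ± 0.35 (SE, n = 3 per group, adjusted p = 0.450 in edgeR), and -0.18 without mouse 2, -0.46 with total counts alone and -0.39 in 1 fit of all 12 libraries. mmu-mir-222-5p was at 3.37, 5.22 and 5.26 CPM in DSS mice and at 4.76, 7.02 and 4.89 CPM in controls, and the groups overlapped. Its log2 fold change was -0.27 ± 0.29 (SE, n = 3 per group, adjusted p = 0.773 in edgeR), and it was -0.03 without mouse 1 and -0.0012 without mouse 4.

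Under the grouping of the disease state labels no member was SDE in either tissue, and neither was any other miRNA. The log2 fold changes of mmu-mir-221-3p were then -0.33 in colon and 0.36 in blood, and those of mmu-mir-222-3p were -0.28 and -0.05. For mmu-mir-221-5p they were 0.09 and 0.60, and for mmu-mir-222-5p -0.04 and -0.03. At an unadjusted p under 0.05 that grouping gave 20 miRNAs in colon and 14 in blood, against 170 and 56 with the grouping used.

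Ratios within a library need no scaling between libraries, so the balance of the arms and of the 2 precursors was compared directly. The 5p arm supplied 0.834%, 1.65% and 1.46% of the miR-221 reads in the blood of DSS mice 1, 7 and 9. Their 95% Wilson intervals were 0.716% to 0.970%, 1.37% to 1.98% and 1.17% to 1.82%. In the blood of control mice 2, 4 and 8 it supplied 4.12%, 3.73% and 2.36%, with intervals of 3.62% to 4.70%, 2.97% to 4.68% and 2.003% to 2.78%. All 3 DSS mice were below all 3 controls, and the nearest intervals, those of DSS mouse 7 and control mouse 8, did not meet. These intervals cover counting error only.

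On the log2 scale of counts + 0.5, the 5p to 3p ratio of miR-221 in blood was -6.28 ± 0.53 in DSS mice and -4.86 ± 0.44 in controls (SD, n = 3 each), a difference of -1.42. The two-sided exact permutation test gave p = 0.1, the smallest that 3 mice against 3 allow, and 0.318 after Benjamini-Hochberg adjustment over the 9 ratio tests made. The difference was -1.12 without mouse 1, and leaving out any mouse kept it between -1.67 and -1.12. Under the grouping of the disease state labels it was 0.41 (exact permutation p = 0.7). Among 106 precursors with both arms tested in blood, 20 (18.9%) had ratios that did not overlap between the groups, 14 of them lower in DSS mice. The difference of miR-221 was the 7th in size among the 106, and the median was -0.11.

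In the colon the 5p share of miR-221 was 7.74%, 4.54% and 5.71% in DSS mice 1, 7 and 9 and 8.09%, 4.90% and 4.92% in controls. The groups overlapped fully. The log2 ratio was -4.00 ± 0.41 and -4.02 ± 0.44 (SD, n = 3 each), with an exact permutation p of 1. In colon 10.8% of 139 precursors had ratios that did not overlap between the groups, and neither miR-221 nor miR-222 was among them.

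The 5p share of miR-222 was lower than that of miR-221 in every library, 0.457% to 1.66% in blood and 0.476% to 1.01% in colon. In blood it was 0.457%, 0.887% and 0.849% in DSS mice and 0.870%, 1.66% and 0.872% in controls. DSS mouse 1 was the lowest, control mouse 4 the highest, and the other 4 lay close together. The log2 difference between DSS and control mice was -0.63 in blood (exact permutation p = 0.3, n = 3 per group) and 0.31 in colon (exact permutation p = 0.4, n = 3 per group). Single mice moved both, to -0.32 in blood without mouse 1 or mouse 4, and in colon to 0.033 without mouse 1 and 0.58 without mouse 7.

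The ratio of mmu-mir-222-3p to mmu-mir-221-3p was 1.48, 2.75 and 2.57 in the blood of DSS mice 1, 7 and 9 and 2.41, 3.93 and 2.85 in controls. DSS mouse 1 was the lowest and control mouse 4 the highest, the same mice that had the highest and lowest mmu-mir-221-3p. The log2 difference was -0.46 (exact permutation p = 0.4, n = 3 per group), and it was -0.18 without mouse 1 and -0.26 without mouse 4. In the colon the ratio was 2.32, 2.32 and 2.12 in DSS mice and 2.19, 2.14 and 1.94 in controls, a log2 difference of 0.11 (exact permutation p = 0.3, n = 3 per group), or 0.057 without mouse 8.

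**Figure D2:**
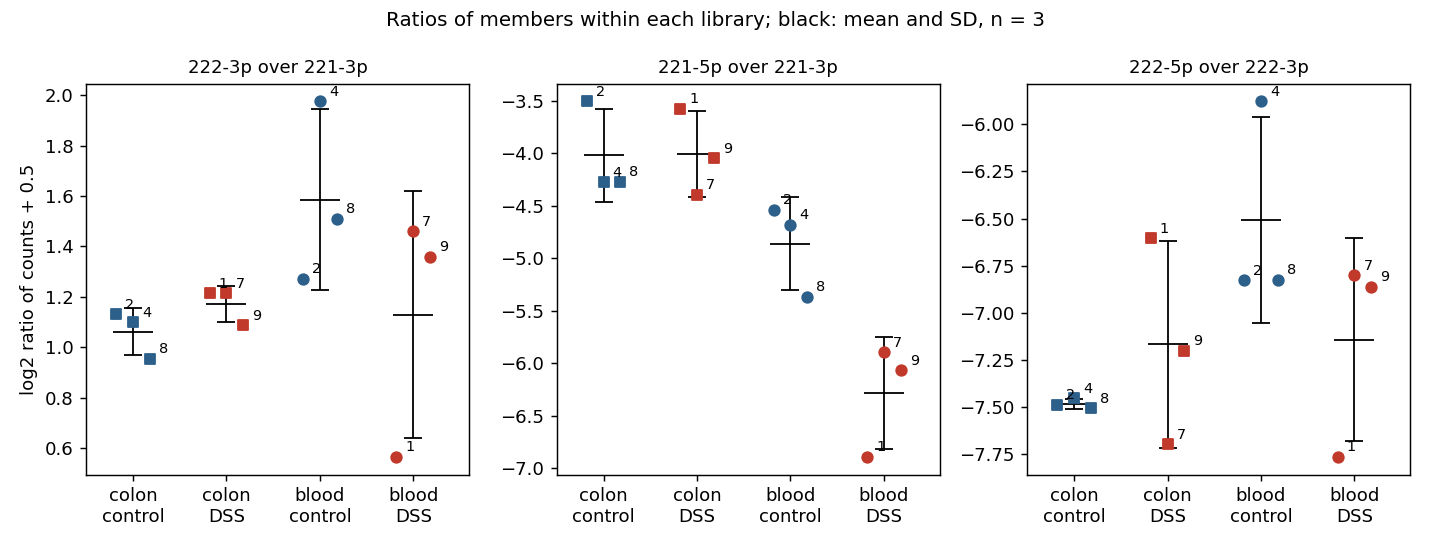
Log2 ratios of member counts (+ 0.5) within each library, by tissue (squares colon, circles blood) and group (blue control, red DSS), with the mouse number and the mean and SD of 3 mice. In blood the 5p to 3p ratio of miR-221 (middle panel) of all 3 DSS mice lies below that of all 3 controls, and all blood values lie below all colon values.

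Between the tissues, the 5p to 3p ratio of miR-221 was lower in blood in all 6 mice. The 5p share was 0.834% to 4.12% in blood and 4.54% to 8.09% in colon, without overlap. The log2 ratio averaged -5.57 ± 0.89 in blood and -4.01 ± 0.38 in colon (SD, n = 6 each), a difference of -1.56. The two-sided exact permutation test gave p = 0.00216, or 0.0195 adjusted over the 9 ratio tests. It ignores that the tissues came from the same mice. An exact sign-flip test within mice gave p = 0.0312, not adjusted, the smallest that 6 pairs allow. Among the 167 precursors with both arms tested, 41.3% had ratios that did not overlap between the tissues, and 59 had a difference at least as large in size as that of miR-221.

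The ratio of miR-222 moved the other way in 5 of 6 mice, by 0.50 on the log2 scale, from -7.32 ± 0.39 in colon to -6.83 ± 0.60 in blood (SD, n = 6 each). Its exact permutation p was 0.106, or 0.318 adjusted, and the exact sign-flip test within mice gave p = 0.25. The ratio of mmu-mir-222-3p to mmu-mir-221-3p was higher in blood in 5 of 6 mice, by 0.24 on the log2 scale (exact permutation p = 0.260, n = 6 each, and 0.281 in the exact sign-flip test). In both cases mouse 1 was the exception among the 6 mice. Without it the differences were 0.83 and 0.42. For each of these the exact permutation p, which ignores that the tissues came from the same mice, was 0.00794, and the exact sign-flip p was 0.0625, the smallest that 5 pairs allow. Without mouse 4 they were 0.28 and 0.11.

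**Figure D3:**
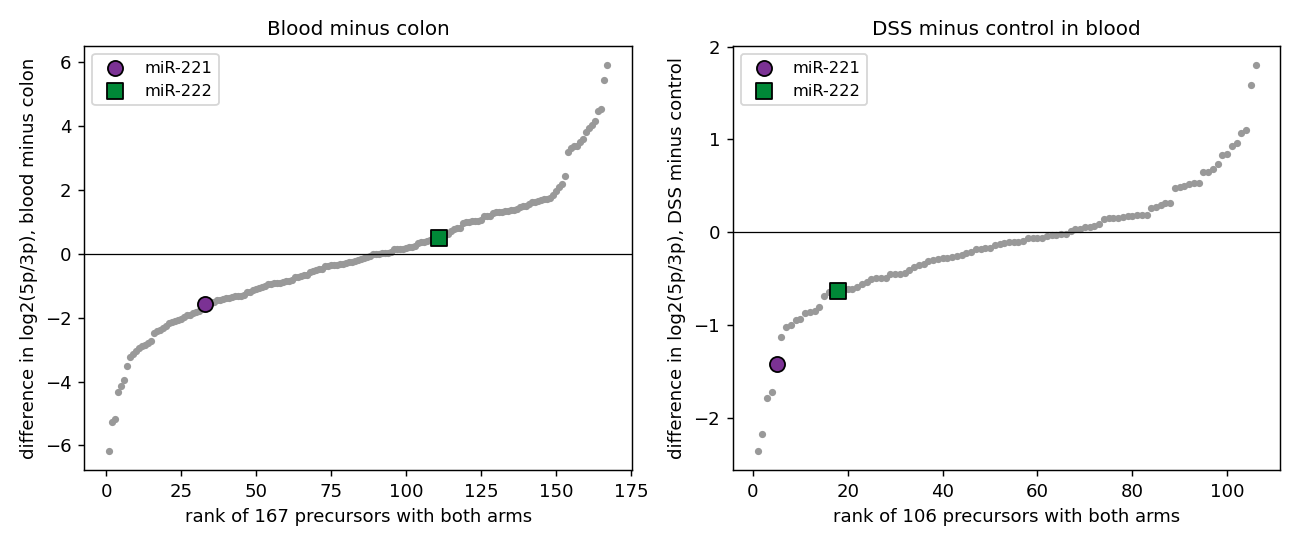
Difference in the log2 ratio of 5p to 3p counts (vertical axis) of every precursor with both arms tested, in order of size, for blood minus colon (left, 167 precursors) and for DSS minus control in blood (right, 106 precursors). miR-221 (circle) is at -1.56 and -1.42, and miR-222 (square) at 0.50 and -0.63.

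Levels of the members in blood and colon could be compared only with a scaling over all 12 libraries. With TMM factors, mmu-mir-221-5p ranged over 4.03 to 10.6 CPM in the blood libraries, all below the 12.2 to 21.7 CPM of the colon libraries, and was lower in blood in all 6 mice. Its log2 fold change was -1.31 ± 0.25 (SE, n = 6 per tissue, adjusted p = 1.34e-04 in edgeR). mmu-mir-222-5p ranged over 5.21 to 8.03 CPM in the blood libraries, all above the 2.89 to 3.78 CPM of the colon libraries, and was higher in blood in all 6 mice, with a log2 fold change of 0.96 ± 0.20 (SE, n = 6 per tissue, adjusted p = 3.38e-04 in edgeR). The 5p arms thus differed between the tissues in opposite directions on this scale.

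The 3p arms were not SDE between the tissues with TMM factors. The blood libraries held mmu-mir-222-3p at 433 to 1223 CPM and the colon libraries at 338 to 630.2 CPM, with a log2 fold change of 0.46 ± 0.22 (SE, n = 6 per tissue, adjusted p = 0.0561 in edgeR). It was 0.23 without mouse 1 and 0.22 without mouse 8. Its adjusted p was 0.00585 with RLE factors in edgeR, at a fold change still under 1.5. For mmu-mir-221-3p the blood libraries spanned 110.02 to 827 CPM, wider than the 146 to 325 CPM of the colon libraries, with a log2 fold change of 0.32 ± 0.30 (SE, n = 6 per tissue, adjusted p = 0.324 in edgeR), and -0.14 without mouse 1, 0.18 without mouse 2, 0.10 without mouse 8 and 0.51 without mouse 9. Both 3p arms were SDE and higher in blood with upper-quartile factors (1.47 for mmu-mir-221-3p and 1.65 for mmu-mir-222-3p). They were also SDE with a minimum of 10 counts in every library (0.78 and 0.92) and with erythroid miRNAs, including miR-486b, left out of the totals. A call here sets a member little apart, since 603 of 680 miRNAs (88.7%) were SDE between the tissues, 37.6% higher in blood and 51.0% lower.

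These differences depended on the scaling. With total counts alone the log2 fold changes were -0.41 for mmu-mir-221-3p, -0.28 for mmu-mir-222-3p, -2.06 for mmu-mir-221-5p and 0.19 for mmu-mir-222-5p. With total counts without the erythroid miRNAs, an alternative added after the data were seen, they were 1.79, 1.96, 0.17 and 2.48. The miRNAs left out were the listed erythroid ones, mmu-mir-486a-3p and both arms of miR-486b. The median log2 fold change of all miRNAs moved as well, from -0.86 with TMM to -1.59 and 0.65 under these scalings. A scaling shifts all miRNAs by about the same amount. mmu-mir-222-5p was higher in blood under all 5 scalings tried, though not SDE with total counts alone, and mmu-mir-221-5p was lower under 4 of them, the exception being the one added later. With upper-quartile factors mmu-mir-221-5p was at -0.11 and not SDE.

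**Figure D4:**
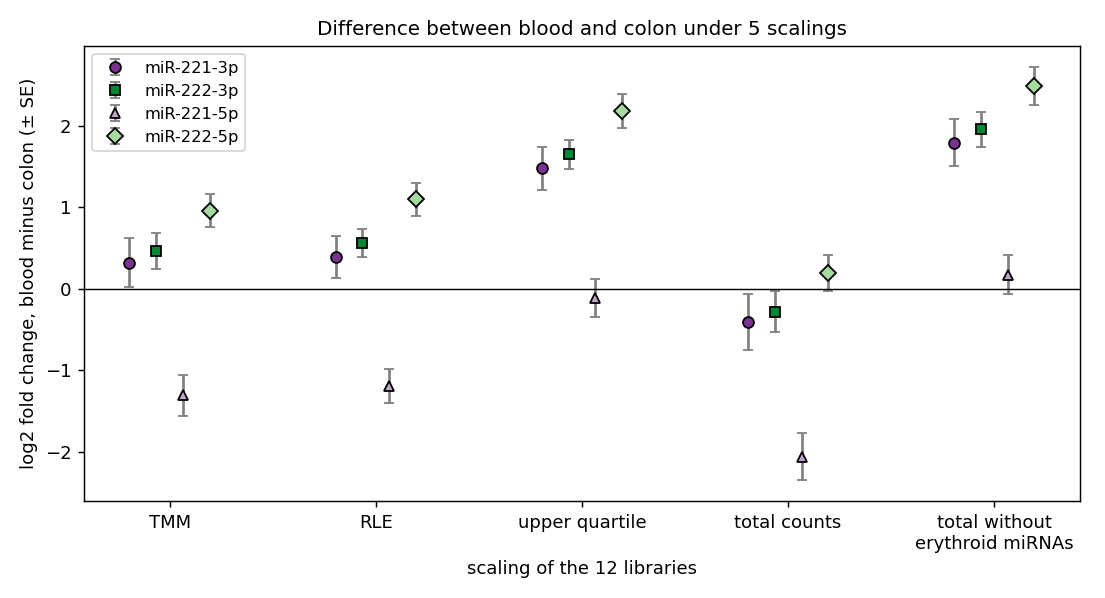
Log2 fold change between blood and colon (vertical axis, ± SE from edgeR, n = 6 per tissue) of each member under 5 scalings of the 12 libraries. mmu-mir-222-5p is above 0 under each scaling, from 0.19 to 2.48, and the 3p arms are below 0 only with total counts.

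The effect of DSS was then compared between the tissues in 1 fit over the 12 libraries, in which 0 of 680 miRNAs (0%) were SDE in edgeR, 94 had an unadjusted p under 0.05, and DESeq2 called 37. For mmu-mir-221-3p the effect in blood minus that in colon was 1.54 ± 0.61 on the log2 scale (SE, adjusted p = 0.300 in edgeR). For mmu-mir-222-3p it was 0.89 ± 0.43 (SE, adjusted p = 0.379 in edgeR). Without mouse 1 these were 0.63 and 0.43. For the 5p arms it was 0.01 (mmu-mir-221-5p) and -0.01 (mmu-mir-222-5p), with adjusted p of 1.00 in edgeR. The median over all miRNAs was 0.22 in this fit and -0.18 with RLE factors, which gave 1.12 and 0.49 for the 3p arms and -0.43 for each 5p arm. DESeq2 gave 1.13 and 0.50 for the 3p arms and -0.42 for each 5p arm, so the sizes depended on the scaling.

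The same mice gave blood and colon, so both comparisons were repeated with the mouse as a replicate block. The log2 fold changes between blood and colon were then -1.36 for mmu-mir-221-5p (adjusted p = 2.97e-04 in edgeR) and 0.95 for mmu-mir-222-5p (adjusted p = 0.00493 in edgeR), and those of the 3p arms were 0.19 and 0.44. The block changed no call of a member.

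Across the 6 colon libraries the 3p arms varied together, with a Pearson r of 0.98 between their log2(CPM + 1), and no other miRNA was more like either of them. After it, the most alike to mmu-mir-221-3p were mmu-mir-324-3p (r = 0.98), mmu-mir-107-3p (r = 0.97) and mmu-mir-669l-5p (r = 0.96). Those most alike to mmu-mir-222-3p were mmu-mir-3970, mmu-mir-107-3p and mmu-mir-28c (r = 0.95 for each). In blood the 3p arms had an r of 0.97 with each other. There the closest to mmu-mir-221-3p were mmu-mir-378d, mmu-mir-301a-5p (both r = 0.98) and mmu-mir-186-5p (r = 0.97). The closest to mmu-mir-222-3p were mmu-mir-378b (r = 0.996), mmu-mir-16-2-3p and mmu-mir-378d (both r = 0.98). None of these was SDE in its tissue. The 5p arms were much less like their 3p partners. For miR-221, r between the arms was 0.38 in colon and 0.01 in blood, and for miR-222 it was -0.14 and -0.91. These values are over 6 libraries, and those of the miRNAs most alike were picked as the highest of all tested. They share the depth and scaling of the libraries, and describe these libraries only.

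Other miRNA groups are given for the setting in which the members were measured. Of 10 miRNAs listed as induced by inflammatory signals, 6 were SDE and higher in DSS colon (median log2 fold change 1.29, against 0.04 for all miRNAs tested). These were mmu-mir-146a-5p, mmu-mir-155-5p, mmu-mir-132-3p, mmu-mir-132-5p, mmu-mir-212-3p and mmu-mir-212-5p, with log2 fold changes from 0.83 to 1.89. In the miR-17-92 cluster, which like miR-221 and miR-222 is tied to proliferation, 0 of 6 were SDE (median 0.08), and its most abundant members mmu-mir-92a-3p and mmu-mir-17-5p were at -0.18 and 0.18. Of 4 myeloid miRNAs, mmu-mir-223-3p and mmu-mir-223-5p were SDE and higher (1.93 and 1.82, list median 1.71). Of 9 epithelial miRNAs, mmu-mir-192-5p, mmu-mir-194-5p, mmu-mir-141-3p and mmu-mir-429-3p were SDE and lower (-1.29 to -0.98, list median -1.08). The summed level of the epithelial list was 71516 to 126226 CPM of the total count in DSS colon and 159414 to 191206 in control colon, and that of the myeloid list 341 to 1443 and 241 to 355.

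The remaining colon lists had no SDE member in edgeR or DESeq2. DESeq2 called 74 of 540 miRNAs tested in colon, among them 8 inflammatory, 3 myeloid and 7 epithelial ones. Medians in edgeR were -0.20 for 6 smooth muscle miRNAs and 0.44 for both endothelial ones (mmu-mir-126a-3p at 0.41, mmu-mir-126a-5p at 0.46). They were 0.09 for 3 tested erythroid ones (mmu-mir-486a-5p at 0.17, mmu-mir-451a at 0.09) and 0.39 for 3 lymphocyte ones (mmu-mir-181a-5p at -0.07, mmu-mir-150-5p at 0.39, mmu-mir-342-3p at 0.80). Of the smooth muscle miRNAs, mmu-mir-143-3p was at -0.02, mmu-mir-145a-3p at -0.07 and mmu-mir-143-5p at 0.03. The others, mmu-mir-145a-5p, mmu-mir-133a-3p and mmu-mir-1a-3p, were at -1.52, -0.36 and -0.33. The part of these cell types in the members' levels was not tested. The number of colon calls depended on single mice and on the scaling. edgeR called 0 miRNAs without mouse 2, 4, 7 or 8, 44 without mouse 1 and 37 without mouse 9, and it called 16 with RLE and 8 with upper-quartile factors.

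In blood no list had an SDE member in edgeR. DESeq2 called 10 of 295 miRNAs tested in blood. Of these, 3 were listed, mmu-mir-223-3p (log2 fold change 1.38), mmu-mir-126a-3p (-1.41) and the epithelial mmu-mir-215-5p (-0.80), the last named here after its values were seen. In edgeR, the list median of the log2 fold change was -0.08 for 9 tested inflammatory miRNAs (mmu-mir-21a-5p at -0.38, mmu-mir-146b-5p at -0.59). Of the others, mmu-mir-146a-5p, mmu-mir-155-5p and mmu-mir-21a-3p were at 0.24, 0.33 and 0.59. The remaining inflammatory ones, mmu-mir-132-3p, mmu-mir-132-5p, mmu-mir-212-5p and mmu-mir-9-5p, were at -0.03, -0.08, -0.42 and -0.21. The median was -0.06 for 6 of the miR-17-92 cluster (mmu-mir-92a-3p at -0.32, mmu-mir-17-5p at -0.66). Its others, mmu-mir-18a-5p, mmu-mir-19a-3p, mmu-mir-19b-3p and mmu-mir-20a-5p, were at 0.20, 1.68, 0.58 and -1.08. The list median was -0.04 for 4 erythroid miRNAs (mmu-mir-486a-5p at -0.25, mmu-mir-451a at -0.56, and the others, mmu-mir-144-3p and mmu-mir-144-5p, at 0.17 and 0.51). It was -0.18 for 4 myeloid ones (mmu-mir-142a-5p at 0.22, mmu-mir-223-3p at 1.31, and the others, mmu-mir-142a-3p and mmu-mir-223-5p, at -0.58 and -0.80) and 0.35 for 3 lymphocyte ones (mmu-mir-181a-5p at 0.63, mmu-mir-150-5p at -0.11). The median of all miRNAs tested in blood was -0.05. Epithelial and smooth muscle miRNAs had medians of -0.26 (mmu-mir-192-5p at -0.06, mmu-mir-200c-3p at -0.34) and -0.30 (mmu-mir-143-3p at -0.18, mmu-mir-133a-3p at 0.07). The 1 endothelial miRNA tested, mmu-mir-126a-3p, was at -1.45 (adjusted p = 0.165 in edgeR). The erythroid list took 381196 to 404100 CPM of the total count in DSS blood and 378969 to 423836 in control blood. Its share thus overlapped between the groups. The list leaves out miR-486b, so it does not give the whole erythroid share.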

How the data were processed

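Small RNA libraries of blood and colon of 6 mice were analysed from the deposited tables. The authors trimmed reads with Flexbar, collapsed them with fastx-toolkit, and deposited raw counts per mature miRNA of miRBase version 22 from the quantifier of miRDeep2. They also deposited a normalized signal per tissue, the count divided by a DESeq2 size factor of the library, used here only in an alternative. No molecular identifiers are described, so depth bears on counting error only. Total RNA libraries were not analysed here.

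Counts were fitted in R (4.3.3) with edgeR (4.0.16): filterByExpr, TMM factors, glmQLFit and glmQLFTest, without covariates, within each tissue, and over all 12 libraries for blood against colon and for the difference in the effect of DSS. Adjusted p covers all miRNAs tested. Standard errors came from the F statistic (absolute log2 fold change over the root of F). Ratios used counts + 0.5 and exact permutation tests. The code was tested on simulated data. Alternatives were DESeq2 (1.42.0), limma (3.58.1) on the deposited signal as log2(value + 1), other scalings and filters (none, or 10 counts in every library), robust dispersion, all libraries in 1 fit, each mature sequence counted once, ratio pseudocounts of 0 and 1, each mouse left out, the grouping of the labels, and the mouse as a replicate block. Blood and colon libraries are paired by the mouse number in their titles, which was taken to mark the same animal. Deviations from the group means of the 2 libraries of a mouse correlated at -0.30 to 0.16 over 357 miRNAs. Within a tissue the p-values measure the spread between single mice. Over both tissues, the fits without the block and the permutation tests measure the spread between libraries, 2 per mouse.

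The members and lists were chosen with earlier results of these data known. miRNAs named are the 4 members, the entry sharing a seed, in each tissue the 3 other miRNAs most alike to each 3p arm by Pearson r of log2(CPM + 1), and from each list the SDE miRNAs or else the 2 with the highest mean CPM. The remaining erythroid and myeloid miRNAs in blood were named after their values were seen. Positions are from RefSeq and GENCODE annotation of GRCm38. Tables and figures were made in Python (3.11.15).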

Additional observations from a re-analysis of the deposited data

Results flagged for a closer look

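mmu-mir-221-3p was flagged because the mice of the 2 groups differed in opposite directions between their tissues. On the TMM scale over 12 libraries it was higher in blood than in colon in all 3 DSS mice (mean log2 difference 0.95) and lower in all 3 control mice (mean -0.55). The values were 2.49, 0.32 and 0.05 in DSS mice 1, 7 and 9 and -9.88e-05, -1.40 and -0.24 in control mice 2, 4 and 8, so the difference of control mouse 2 was close to 0. The difference between the groups, tested as an interaction in edgeR, was 1.54 (unadjusted p = 0.0232, adjusted p = 0.300), and 0.63 without mouse 1 (adjusted p = 0.624 in edgeR). The sign within a mouse depends on the scaling between the tissues. Groups of 3 libraries were too small for a test of single outlying libraries.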

How the results depend on the processing

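Of 345 alternative values of the members and ratios, 300 kept their direction and their side of the threshold, 35 reversed, 8 passed the threshold where the reported value did not, and 2 kept their direction but no longer passed it. One of those that reversed also lost a call (mmu-mir-221-5p between blood and colon, without erythroid miRNAs in the totals). No alternative called a member between DSS and control mice in either tissue or in the difference between tissues. In colon, mmu-mir-222-5p was at -0.0017 (DESeq2), -0.053 (upper-quartile factors), -0.0093 (limma on the deposited signal) and -0.037 (label grouping). There mmu-mir-222-3p was at 0.033 with total counts and mmu-mir-221-5p at 0.094 with the label grouping. In blood, mmu-mir-222-5p was at 0.012 in 1 fit of all libraries, and with the label grouping mmu-mir-221-5p was at 0.60 and mmu-mir-222-3p at -0.051, the miR-221 arm ratio at 0.41 and the miR-222 arm ratio at 0.0059. For blood minus colon, upper-quartile factors gave 1.47 (mmu-mir-221-3p), 1.65 (mmu-mir-222-3p) and -0.11 (mmu-mir-221-5p, no longer SDE), total counts -0.41, -0.28 and, for mmu-mir-222-5p, 0.19 (no longer SDE), at least 10 counts in every library 0.78 and 0.92 (3p arms), and total counts without erythroid miRNAs 1.79, 1.96 (3p arms) and 0.17 (mmu-mir-221-5p, no longer SDE). The difference in the effect of DSS for mmu-mir-221-5p was -0.43 (RLE), -0.16 (upper quartile), -0.34 (total counts), -0.14 (no filter), -0.13 (10 counts), -0.42 (DESeq2) and -0.27 (without erythroid miRNAs), and for mmu-mir-222-5p 0.0076 with each sequence counted once. The cause was not tested.

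With each mouse left out, mmu-mir-222-5p ranged from -0.043 to 0.18 in colon, mmu-mir-221-3p from -0.14 to 0.51 between blood and colon, and the differences in the effect of DSS from -0.27 to 0.35 (mmu-mir-221-5p) and -0.24 to 0.17 (mmu-mir-222-5p). The miR-221 arm ratio ranged from -0.20 to 0.27 between DSS and control colon. Between blood and colon the miR-222 arm ratio ranged from 0.28 to 0.83 and the ratio of the 3p arms from 0.11 to 0.42. With the mouse as a replicate block the log2 fold change of mmu-mir-221-5p between blood and colon was -1.36, and no call of a member changed. The number of SDE miRNAs in colon was 0 to 76 over the alternatives (55 as reported) and in blood 0 to 25, the largest with no filter. With 3 mice a group an exact test cannot pass 0.05, and the 56 to 129 counts of mmu-mir-222-5p in a colon library limit its ratio.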
